A study of Mus musculus with 20 samples.

Results

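Fatty acid and cholesterol synthesis were followed through 34 genes in mammary glands of mice that carried a TGFα transgene, received tamoxifen or placebo, and were later scored for mammary tumors. The genes were chosen by name, with earlier results of these data known. They comprise 19 genes of the fatty acid branch, which supply carbon and reducing power, build, elongate and desaturate fatty acids, join them into triglyceride and regulate these steps, and 15 genes of the cholesterol branch. A gene was matched by its symbol in the platform annotation and read from 1 probe set, that of the highest mean across all 20 arrays. Probe sets were found for 33 of the 34 genes, among 18194 genes with one, and Acat2, which condenses acetyl-CoA at the entry to the mevalonate pathway, is not analysed here. All 33 passed the filter on dim probe sets that left 12499 genes for testing, which asked for values over 6.85 on the log2 scale on at least 3 arrays.

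Mammary fat makes fatty acids from cytosolic acetyl-CoA, and mammary epithelium turns on the same enzymes when it produces milk. Cells build cholesterol from the same precursor through mevalonate, farnesyl diphosphate, squalene and lanosterol. The transcription factor SREBP-2, encoded by Srebf2, is best known for activating the cholesterol genes when sterols are scarce, while SREBP-1c, encoded by Srebf1, and ChREBP, encoded by Mlxipl, are best known for activating the fatty acid genes in response to insulin and sugar.

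All 20 animals were female FVB/N mice of the line 1372-1 TgN(Nrl-tgfalpha)29EPS, heterozygous for the transgene, in which the NRL promoter drives TGFα in mammary epithelium, so no animal without the transgene was compared. A subcutaneous implant given at 8.5 weeks of age released 5 mg tamoxifen, a selective oestrogen receptor modulator, or held carrier only. One tumor-free number 4 gland per animal was taken at 20.5 to 21 weeks, 4 weeks after treatment ended, and the animals were then watched for tumors up to 2 years of age. Tumors developed in 7 of the 10 placebo animals profiled and in 3 of the 10 tamoxifen animals, which gives 4 groups, namely placebo with tumor (n = 7), placebo without tumor (n = 3), tamoxifen with tumor (n = 3) and tamoxifen without tumor (n = 7). Each animal is a separate biological sample with 1 array, and animals are named by treatment and number.

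Values are the authors' RMA expression on the log2 scale, in which a difference of 1 is a doubling. Over the 45101 probe sets they ran from 3.38 to 14.55, array medians lay between 6.82 and 6.89, and the number of arrays limits the precision. On the first principal component of the genes tested, which held 31.9% of the variance, placebo animals 8, 7 and 9 stood apart, and tumors developed in each of them later. For Fads2 and Fads1, the members called below, differences that moved by more than 1.5 times without these animals are given with and without them. In whole glands, fewer cells of a type and less RNA per cell cannot be told apart. The markers of the labelled tissue were present: the group means of Epcam, an adhesion molecule of epithelial cells, lay between 10.11 and 11.42, and those of Adipoq, a hormone gene of fat cells, between 14.03 and 14.15.

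Upstream regions of 4 genes are shown because the results turn on them: Fads2, which had the largest difference between groups, Acly and Idi1, whose branches varied together between animals, and Hmgcs1, which followed neither branch. Each line gives the 250 bases before the annotated start, 5′ to 3′ on the gene's own strand, from RefSeq's table on GRCm38.p6 (the animals were FVB/N). Capitals mark matches on either strand to the CCAAT box (CCAAT or ATTGG), the GC box (GGGCGG or CCGCCC) and a sterol element (TCACNCCAC or GTGGNGTGA), and none of these letter patterns contains another.
Fads2, chr19:10101504-10101753, minus strand: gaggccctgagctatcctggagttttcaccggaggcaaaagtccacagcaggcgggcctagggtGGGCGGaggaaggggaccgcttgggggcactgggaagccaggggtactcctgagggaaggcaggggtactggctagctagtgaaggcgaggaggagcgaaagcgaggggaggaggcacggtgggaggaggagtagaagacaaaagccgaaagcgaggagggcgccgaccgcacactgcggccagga
Acly, chr11:100528001-100528250, minus strand: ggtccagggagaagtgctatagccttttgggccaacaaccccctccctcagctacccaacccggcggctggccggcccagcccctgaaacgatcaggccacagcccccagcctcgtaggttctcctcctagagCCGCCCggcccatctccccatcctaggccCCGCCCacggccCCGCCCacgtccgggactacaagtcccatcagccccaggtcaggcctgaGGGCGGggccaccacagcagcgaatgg
Hmgcs1, chr13:119690101-119690350, plus strand: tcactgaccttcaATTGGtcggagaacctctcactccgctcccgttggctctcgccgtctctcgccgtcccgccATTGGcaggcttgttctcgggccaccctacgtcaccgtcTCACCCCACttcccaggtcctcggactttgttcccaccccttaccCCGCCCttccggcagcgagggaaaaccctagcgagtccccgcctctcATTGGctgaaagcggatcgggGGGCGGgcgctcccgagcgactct
Idi1, chr13:8885356-8885605, plus strand: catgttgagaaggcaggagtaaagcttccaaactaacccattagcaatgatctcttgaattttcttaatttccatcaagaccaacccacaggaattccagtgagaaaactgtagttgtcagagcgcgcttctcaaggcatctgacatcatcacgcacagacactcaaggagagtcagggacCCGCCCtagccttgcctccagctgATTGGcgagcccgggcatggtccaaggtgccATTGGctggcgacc

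Of the 34 genes, 26 had an upstream region in that table. The 8 without one were Scd1, Scd2, Dgat1, Dgat2, Fdft1, Fdps, Fads1 and Sqle. A CCAAT box was present in 11 of 12 cholesterol genes and in 8 of 14 fatty acid genes, against 37.49% of all 27025 genes in the table. A GC box was present in 11 of 12 cholesterol genes and in 7 of 14 fatty acid genes, against 35.36% of all genes. The cholesterol gene without a CCAAT box was Acat2, and the one without a GC box was Pmvk. The sterol element, the letter pattern of a known SREBP binding site, was found upstream of Hmgcs1 and Mlxipl, against 1.22% of all genes. An E-box (CACGTG) was found upstream of Elovl5, Mlxipl, Sc5d, Dhcr7 and Insig1, against 6.86% of all genes. A gene with several annotated starts was counted where any of its windows held the letters. A match describes the sequence only, and binding was not measured.

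The first comparison set the 7 tamoxifen animals without tumors against the 7 placebo animals with tumors. Here Fads2 and Fads1 fell, and these were the 2 members called among the 19 of the fatty acid branch, while none of the 14 measured cholesterol genes passed in either direction (limma, adjusted p under 0.05). For comparison, 4.63% of all genes tested were called, 279 higher and 300 lower. At an unadjusted p under 0.05, 3 fatty acid genes (Fads2, Fads1 and Me1, all lower) and no cholesterol gene passed, against 20.4% of all genes. The median difference was -0.09 in each branch, against 0.01 over all genes, and 16 of 19 fatty acid genes and 8 of 14 cholesterol genes lay below 0. Because these genes vary together between animals, such counts of direction are not independent observations. Without the 3 placebo animals that stood apart on the first principal component, every fatty acid gene lay below 0. The values ran from -0.72 for Elovl6 to -0.02 for Scd1, with Elovl5, at -0.21, in the middle. Cholesterol genes then ran from -0.46 for Cyp51 to 0.33 for Hmgcs1, with Fdps, at -0.24, and Fdft1, at -0.19, in the middle. Only Hmgcs1, Srebf2, Dhcr7 and Mvk lay above 0 among them. The middle of each branch thus lay further below 0 without those animals than with them. No median over all genes is set beside the values without them.

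Fads2 encodes the desaturase of the first step by which essential fatty acids become long polyunsaturated ones, and Fads1 encodes the desaturase that acts later in the same route. The genes are neighbours on mouse chromosome 19 (GRCm38.p6), Fads2 at chr19:10062765-10101503 and Fads1 at chr19:10182877-10196874. Fads2 ran from 8.64 to 9.92, with a median of 9.12, in the 7 placebo animals with tumors, and was 8.32, 8.43 and 8.74 in the 3 placebo animals without. In the tamoxifen animals it was 8.51, 8.64 and 8.80 in the 3 with tumors and ran from 8.14 to 8.66, with a median of 8.46, in the 7 without. Placebo animals 7 and 8, at 9.92 and 9.73, were the highest of all 20, and the lowest placebo animal with a tumor was below the highest tamoxifen animal without one, so that the ranges just overlapped. The difference was -0.78 (SE 0.16, adjusted p = 0.00985), or 1.71-fold lower, with a 95% interval from -1.11 to -0.45. All 7 tamoxifen animals without tumors were below the median of the placebo animals with tumors.

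Fads1 ran from 10.62 to 11.12, with a median of 11.04, in the 7 placebo animals with tumors, and was 10.68, 10.74 and 10.94 in the 3 placebo animals without. Among tamoxifen animals it was 10.44, 10.66 and 10.88 in the 3 with tumors and ran from 10.17 to 10.81, with a median of 10.63, in the 7 without. In Fads1 as well, no tamoxifen animal without a tumor reached the median of the placebo animals with tumors, and the ranges overlapped because placebo animal 10 was low. The difference was -0.36 (SE 0.098, adjusted p = 0.0441), or 1.28-fold lower, with a 95% interval from -0.56 to -0.15. Without placebo animals 7, 8 and 9, Fads2 stayed below the threshold, at -0.56 (SE 0.11, adjusted p = 0.0185), and Fads1 did not, at -0.31 (SE 0.12, adjusted p = 0.270), both by limma. The call of Fads1 was lost in 21 of 35 other settings and that of Fads2 in 3. The 21 settings for Fads1 include leaving out any single one of placebo animals 1, 2, 4, 5, 6, 7, 8 and 9 and of tamoxifen animals 1, 3, 4, 5 and 6. In those, its adjusted p ran from 0.0515 to 0.0927 (limma).

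The epithelial markers moved in the same contrast, so their values stand beside those of the desaturases. Of 12 pan-epithelial markers tested, 8 were called lower and none higher (limma), and 11 of the 12 lay below 0. Their mean centred level per animal ran from 0.06 to 1.16 in placebo animals with tumors and from -0.71 to 0.19 in tamoxifen animals without. It was highest in placebo animals 8 and 7, at 1.16 and 1.08, which are also the animals with the most Fads2. Of 11 milk and alveolar markers tested, 8 were called lower, and their mean level ran from 0.39 to 3.13 and from -1.41 to -0.91 in the same groups. Of 10 skeletal muscle markers tested 8 were called higher, and of 7 T cell markers 6 were called higher. Of 7 basal and myoepithelial markers 2 were called lower, and 6 of the 7 lay below 0. T cell means per animal ran from -0.63 to -0.0072 and from -0.29 to 0.66 in the same groups. None of the 8 brown adipocyte, 6 macrophage and 6 endothelial markers was called. With the pan-epithelial mean as a covariate the Fads2 difference was -0.27 (SE 0.18, adjusted p = 0.967), with the milk mean it was -0.79 (SE 0.34, adjusted p = 1.000), and with the white adipocyte mean, none of whose 11 tested markers was called, it was -0.60 (SE 0.16, adjusted p = 0.0538), all by limma. Over all genes these fits called 6, 0 and 266 genes in place of 579. Beyond them, their part in the result was not tested.

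A second probe set of Fads2 above the filter was lower by a similar amount, with a difference of -0.87, and another, below the filter, had -0.49. The second Fads1 probe set had a difference of -0.06. So the probe sets of Fads2 had the same direction, and for Fads1 the difference rests on 1 probe set.

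**Figure D1:**
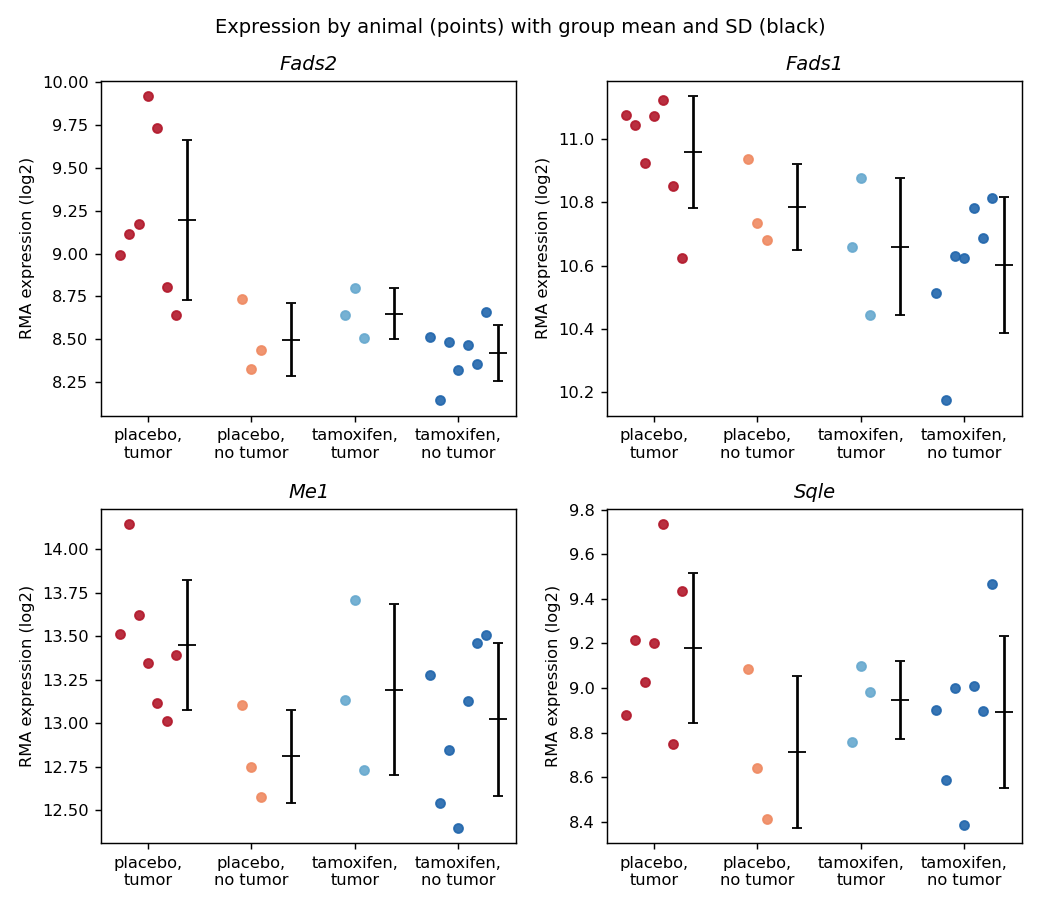
RMA expression (log2, vertical axes) of Fads2, Fads1, Me1 and Sqle in each animal (points) of the 4 groups, with the group mean and SD in black. The highest Fads2 values, 9.92 and 9.73, are both in placebo animals with tumors, and in Me1 and Sqle the groups overlap widely.

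The pooled comparison by outcome set all 10 animals with later tumors against all 10 without. Within it limma called no member of either branch, against 0.232% of all genes tested. At an unadjusted p under 0.05, 3 fatty acid genes (Fads2, Me1 and Fads1, all higher with tumors) and no cholesterol gene passed, against 16.5% of all genes. The median difference was 0.06 in each branch and -0.01 over all genes. Fads2 had the smallest p of all members, with a difference of 0.59 (SE 0.15, adjusted p = 0.0814) by limma, and all 10 animals with tumors were above the median of those without. Without placebo animals 7, 8 and 9 it was 0.39 (SE 0.098, adjusted p = 0.149). Adjusted for treatment, the Fads2 difference was 0.46 (SE 0.15, adjusted p = 0.427), by limma. That of Fads1 went from 0.21 to 0.12 (SE 0.088, adjusted p = 0.695) with the same adjustment. In the same comparison 6 of 11 milk and alveolar markers were called higher, and of 12 pan-epithelial markers 8 were higher at an unadjusted p under 0.05 and 0 were called. With the pan-epithelial mean as a covariate the Fads2 difference was 0.13 (SE 0.14, adjusted p = 0.975), and with the milk mean 0.30 (SE 0.22, adjusted p = 1.000). Fads2 was called without tamoxifen animal 1 (adjusted p = 0.0478, limma) and without tamoxifen animal 10 (adjusted p = 0.0469).

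Treatment was compared over all 10 tamoxifen and all 10 placebo animals. No member of either branch was called by limma, against 0.008% of all genes. At an unadjusted p under 0.05, Fads1 and Fads2 were lower with tamoxifen and no cholesterol gene passed, against 13.9% of all genes. The Fads1 difference was -0.29 (SE 0.083, adjusted p = 0.151) and that of Fads2 -0.50 (SE 0.16, adjusted p = 0.183), by limma. The Fads2 difference was -0.28 (SE 0.12, adjusted p = 0.417) without placebo animals 7, 8 and 9, -0.31 (SE 0.15, adjusted p = 0.671) adjusted for outcome, and -0.16 (SE 0.11, adjusted p = 0.999) with the pan-epithelial mean as a covariate, of whose 12 markers 7 were lower at an unadjusted p under 0.05. No tamoxifen animal reached the placebo median of either gene. The median difference was -0.07 in the fatty acid branch, -0.03 in the cholesterol branch and 0.0011 over all genes.

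Within each treatment, and within each outcome, limma called 0 members of either branch. Among placebo animals the background was 0.008% of all genes, and at an unadjusted p under 0.05, where 14.1% of all genes passed, Fads2, Me1, Fdps and Sqle were higher with tumors and Lpin1 was lower. Their differences were 0.70 (SE 0.20) for Fads2, 0.64 (SE 0.26) for Me1, 0.46 (SE 0.21) for Fdps, 0.46 (SE 0.21) for Sqle and -0.45 (SE 0.20) for Lpin1. Without placebo animals 7, 8 and 9 that of Lpin1 was -0.18 (SE 0.18). Among tamoxifen animals no member passed even the unadjusted threshold, against 0.008% of all genes adjusted and 2.1% unadjusted. All 19 fatty acid genes had a higher mean in the 3 tamoxifen animals with tumors than in the 7 without, by 0.0032 to 0.30, with a median of 0.10, where 38.5% of all genes were higher. By group medians Acaca, Scd2 and Srebf1 were lower with tumors. Tamoxifen animals 6 and 4, both without tumors, had the lowest mean levels of the branch among all animals, -0.43 and -0.37. The genes vary together between animals, so this count is not made of independent observations.

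Between treatments in animals without tumors, 0 members passed either threshold, against 0.064% of all genes adjusted and 5.26% unadjusted. Between treatments in animals with tumors, 0% of all genes were called, and Fads2 and Fads1 alone passed the unadjusted threshold that 7% of all genes passed, at -0.55 (SE 0.20) and -0.30 (SE 0.13) with tamoxifen. Without placebo animals 7, 8 and 9 the Fads2 value there was -0.33 (SE 0.14). Between tamoxifen animals with tumors and placebo animals without, the discordant groups, no gene was called (0% of all genes) and no member passed unadjusted, against 2.7%. The difference between the outcome effects of the 2 treatments, the interaction, called no gene (0%). There, Lpin1, whose phosphatase makes diacylglycerol, was the only member under the unadjusted threshold, with 0.60 (SE 0.28, adjusted p = 0.938, limma), against 4.52% of all genes, and with 0.33 (SE 0.24) without placebo animals 7, 8 and 9. These comparisons share animals with each other, so their values are not independent.

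**Figure D2:**
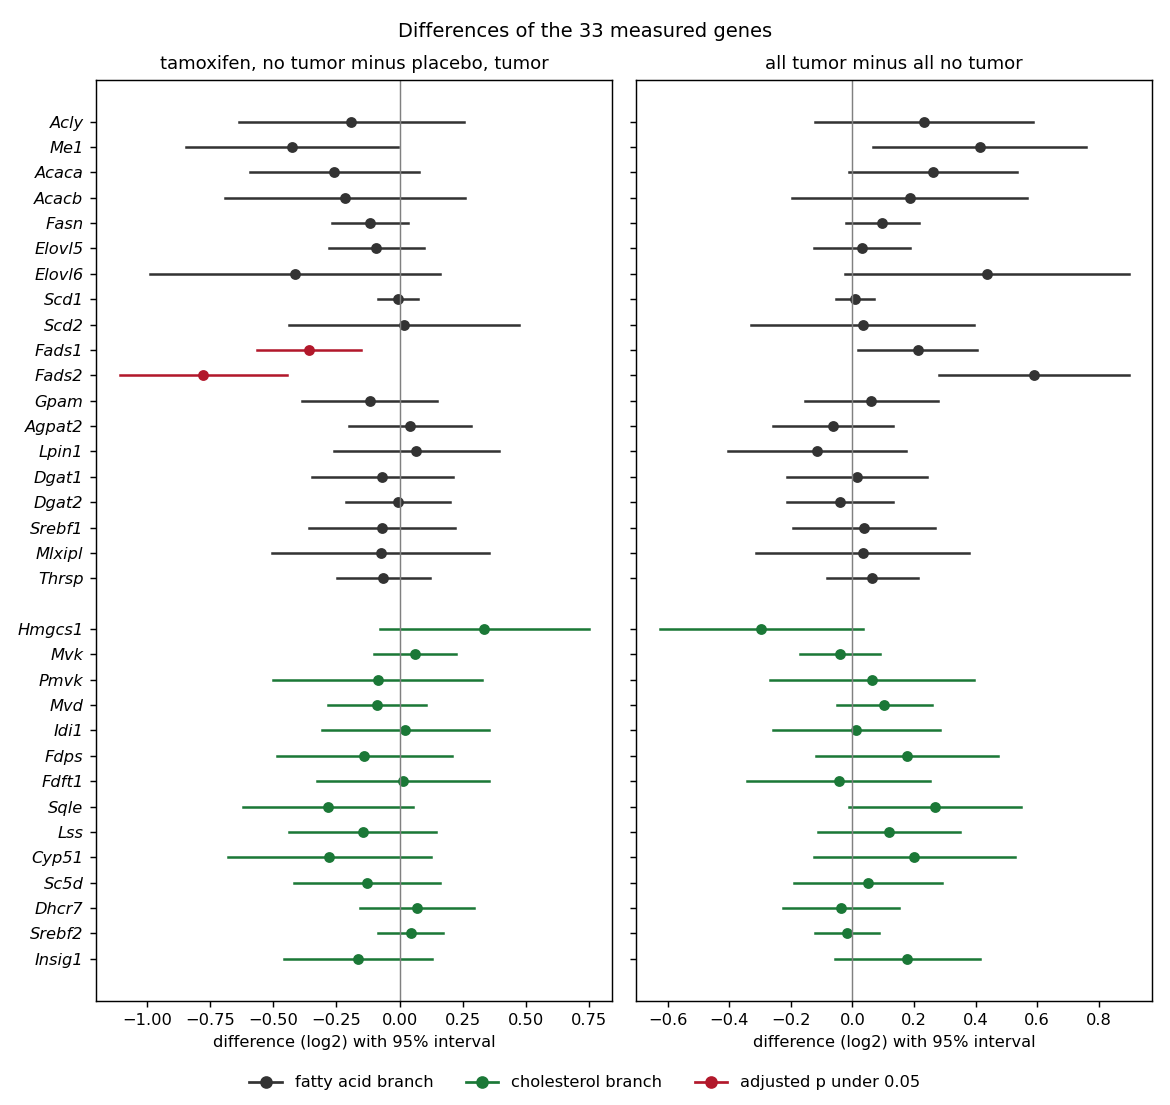
Difference in log2 expression (horizontal axes, points) with its 95% interval (lines) for the 33 measured genes, between tamoxifen animals without and placebo animals with tumors (left) and between all animals with and without tumors (right). On the left only Fads2, at -0.78, and Fads1, at -0.36, are marked as past the threshold.

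Gene by gene, group values are given as mean ± SD in the order placebo with tumor, placebo without, tamoxifen with and tamoxifen without (n = 7, 3, 3 and 7), and differences without another label compare the last group with the first by limma. The supply enzymes come first. Me1, the malic enzyme that makes NADPH for fatty acid synthesis, followed Fads2 and Fads1 in order of p within the branch in that comparison. Me1 ran from 13.01 to 14.15, with a median of 13.39, in the 7 placebo animals with tumors, and was 12.58, 12.75 and 13.10 in the 3 placebo animals without. With tamoxifen it was 12.73, 13.14 and 13.71 in the 3 with tumors and ran from 12.40 to 13.51, with a median of 13.13, in the 7 without. Placebo animal 2 was highest and tamoxifen animal 6 lowest, and the groups overlapped. The difference was -0.43 (SE 0.20, adjusted p = 0.236), and that by outcome over all animals was 0.41 (SE 0.17, adjusted p = 0.219). Acly, the ATP citrate lyase that makes cytosolic acetyl-CoA, averaged 13.39 ± 0.33, 13.04 ± 0.68, 13.37 ± 0.31 and 13.20 ± 0.45, with a difference of -0.19 (SE 0.21).

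The synthesis step proper begins with the acetyl-CoA carboxylases. Acaca ran from 12.80 to 13.61, with a median of 13.15, in the 7 placebo animals with tumors, and was 12.49, 12.76 and 12.83 in the 3 placebo animals without. After tamoxifen it was 12.62, 12.94 and 13.32 in the 3 with tumors and ran from 12.32 to 13.31, with a median of 12.97, in the 7 without. Acaca encodes the cytosolic carboxylase, and its range in placebo animals without tumors lay within the range of the tamoxifen animals. Its difference by outcome was 0.26 (SE 0.13, adjusted p = 0.325) by limma. Acacb, the carboxylase isoform of the mitochondrial surface, averaged 11.88 ± 0.47, 11.85 ± 0.41, 11.97 ± 0.19 and 11.67 ± 0.53. Fasn encodes the fatty acid synthase that joins the malonyl units. Fasn ran from 13.92 to 14.20, with a median of 14.12, in the 7 placebo animals with tumors, and was 13.83, 14.03 and 14.08 in the 3 placebo animals without. In animals given tamoxifen it was 13.87, 14.07 and 14.15 in the 3 with tumors and ran from 13.71 to 14.12, with a median of 14.04, in the 7 without. The Fasn ranges of the 4 groups overlapped, and the difference was -0.12 (SE 0.071, adjusted p = 0.369) by limma. Fasn values reached 14.20, near the highest value on any array (14.55), and the gene had no other probe set.

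The elongases and stearoyl-CoA desaturases had no call. Elovl5, which elongates polyunsaturated fatty acids between the steps of Fads2 and Fads1, came next after Fads1 and Fads2 by p among fatty acid genes in the treatment comparison, with -0.10 (SE 0.072, adjusted p = 0.571) by limma. Elovl5 ran from 11.68 to 12.34, with a median of 11.92, in the 7 placebo animals with tumors, and was 11.72, 12.04 and 12.21 in the 3 placebo animals without. In the tamoxifen animals it was 11.83, 11.89 and 11.92 in the 3 with tumors and ran from 11.70 to 12.01, with a median of 11.84, in the 7 without. All groups overlapped. Elovl6, which elongates palmitate, averaged 12.82 ± 0.54, 12.21 ± 0.64, 12.70 ± 0.44 and 12.41 ± 0.58, and its values spread over a 5.08-fold range between animals, the widest of the 33 genes. Scd1, the desaturase that makes oleate, averaged 14.38 ± 0.036, 14.38 ± 0.036, 14.40 ± 0.086 and 14.37 ± 0.057. Its values ran from 14.28 to 14.47, close to the highest value on any array (14.55), and its other probe set, with a mean of 13.16, had a difference of -0.25 where this one had -0.0068. Scd2, a second stearoyl-CoA desaturase, averaged 11.62 ± 0.34, 11.62 ± 0.62, 11.77 ± 0.082 and 11.64 ± 0.52.

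Triglyceride assembly was likewise without a call. Gpam, which acylates glycerol-phosphate, averaged 11.98 ± 0.30, 12.03 ± 0.24, 11.96 ± 0.17 and 11.86 ± 0.23. Agpat2, which adds the next acyl chain, averaged 12.95 ± 0.25, 13.13 ± 0.18, 13.01 ± 0.11 and 12.99 ± 0.25. Lpin1 averaged 11.17 ± 0.36, 11.62 ± 0.26, 11.39 ± 0.21 and 11.24 ± 0.31. The last acylation is made by Dgat1 and by Dgat2, enzymes unrelated in sequence. Dgat1 averaged 11.67 ± 0.28, 11.77 ± 0.19, 11.66 ± 0.20 and 11.61 ± 0.30. Dgat2 averaged 13.48 ± 0.19, 13.67 ± 0.061, 13.52 ± 0.15 and 13.48 ± 0.24. Of the 3 regulators, Srebf1 averaged 11.51 ± 0.095, 11.48 ± 0.20, 11.45 ± 0.33 and 11.44 ± 0.38, Mlxipl averaged 10.43 ± 0.29, 10.54 ± 0.55, 10.48 ± 0.19 and 10.36 ± 0.51, and Thrsp, the lipogenic protein Spot 14, averaged 14.19 ± 0.13, 14.16 ± 0.20, 14.23 ± 0.12 and 14.13 ± 0.21. Their differences between the tamoxifen animals without and the placebo animals with tumors lay between -0.08 and -0.06, and Srebf1 had the smallest share of variance between groups of all 33 genes, 1.56%. Thrsp values reached 14.36, near the top of the scale, and its difference was -0.06. The other Thrsp probe sets above the filter, with means of 13.51 and 7.94, had differences of -0.15 and -0.06.

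No cholesterol gene was called, and the differences of the branch ran from -0.28 for Sqle to 0.34 for Hmgcs1. Hmgcs1, the synthase that makes HMG-CoA, was the member with the largest positive difference between tamoxifen animals without and placebo animals with tumors. Hmgcs1 ran from 10.63 to 12.17, with a median of 11.45, in the 7 placebo animals with tumors, and was 11.52, 11.74 and 11.92 in the 3 placebo animals without. Among tamoxifen animals it was 11.23, 11.58 and 11.76 in the 3 with tumors and ran from 11.13 to 12.18, with a median of 11.87, in the 7 without. Placebo animal 2 was lowest and tamoxifen animal 9 highest, and the groups overlapped. The difference was 0.34 (SE 0.20, adjusted p = 0.352), that by outcome -0.30 (SE 0.16, adjusted p = 0.357) and that by treatment 0.17 (SE 0.17, adjusted p = 0.674), none of them called by limma. The 3 other Hmgcs1 probe sets above the filter had differences of 0.31, 0.34 and 0.28.

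The kinases and the decarboxylase of the mevalonate pathway were not called in any comparison. Mvk, which phosphorylates mevalonate, averaged 8.13 ± 0.14, 8.11 ± 0.011, 8.12 ± 0.038 and 8.19 ± 0.19. Pmvk, which phosphorylates the product again, averaged 9.68 ± 0.37, 9.51 ± 0.48, 9.52 ± 0.28 and 9.60 ± 0.43. Mvd ran from 7.34 to 7.82, with a median of 7.60, in the 7 placebo animals with tumors, and was 7.26, 7.53 and 7.59 in the 3 placebo animals without. With tamoxifen it was 7.47, 7.61 and 7.70 in the 3 with tumors and ran from 7.22 to 7.88, with a median of 7.51, in the 7 without. Mvd encodes the decarboxylase that yields isopentenyl diphosphate, its groups overlapped, and its difference by outcome was 0.10 (SE 0.074, adjusted p = 0.50) by limma. Idi1, the isomerase, averaged 9.64 ± 0.31, 9.44 ± 0.33, 9.53 ± 0.070 and 9.66 ± 0.37, and Fdps, which makes farnesyl diphosphate, averaged 10.22 ± 0.31, 9.76 ± 0.25, 10.02 ± 0.076 and 10.08 ± 0.42.

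The sterol segment starts with Fdft1, the squalene synthase, which averaged 9.67 ± 0.33, 10.03 ± 0.23, 9.91 ± 0.46 and 9.68 ± 0.29. Sqle, the squalene epoxidase and a rate-limiting step, had the smallest p of the cholesterol branch in the outcome comparison and in that of tamoxifen without against placebo with tumors. Sqle ran from 8.75 to 9.74, with a median of 9.20, in the 7 placebo animals with tumors, and was 8.42, 8.64 and 9.09 in the 3 placebo animals without. After tamoxifen it was 8.76, 8.98 and 9.10 in the 3 with tumors and ran from 8.39 to 9.46, with a median of 8.90, in the 7 without. Placebo animal 8 was highest, and the groups overlapped. The difference was -0.28 (SE 0.16, adjusted p = 0.330), and by outcome it was 0.27 (SE 0.13, adjusted p = 0.325), by limma. With the pan-epithelial mean as a covariate both Sqle differences changed sign, to 0.12 and -0.05.

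Lss, which closes the ring to lanosterol, averaged 9.46 ± 0.24, 9.37 ± 0.39, 9.42 ± 0.090 and 9.31 ± 0.30. Cyp51 encodes the demethylase of lanosterol. Cyp51 ran from 7.74 to 8.92, with a median of 8.08, in the 7 placebo animals with tumors, and was 7.47, 7.93 and 8.45 in the 3 placebo animals without. In animals given tamoxifen it was 7.93, 7.97 and 8.01 in the 3 with tumors and ran from 7.41 to 8.54, with a median of 7.92, in the 7 without. The 3 tamoxifen animals with tumors lay inside the range of every other group. The Cyp51 difference was -0.28 (SE 0.19, adjusted p = 0.432), and by treatment it was -0.19 (SE 0.16, adjusted p = 0.620), by limma. The first was -0.46 (SE 0.22) without placebo animals 7, 8 and 9. The other Cyp51 probe sets, both below the filter, had -0.04 and 0.01 there, and 0.02 and 0.04 by treatment, over all animals. Sc5d, a desaturase of the sterol ring, had the second smallest p of the branch by treatment, with -0.13 (SE 0.11, adjusted p = 0.631). Its other probe sets above the filter had treatment differences of -0.07 and -0.02. Sc5d ran from 8.93 to 9.87, with a median of 9.49, in the 7 placebo animals with tumors, and was 9.46, 9.49 and 9.86 in the 3 placebo animals without. In the tamoxifen animals it was 9.34, 9.53 and 9.54 in the 3 with tumors and ran from 8.96 to 9.94, with a median of 9.30, in the 7 without. Those groups overlapped as well. Dhcr7, the reductase of the last step to cholesterol, averaged 8.43 ± 0.12, 8.31 ± 0.32, 8.35 ± 0.035 and 8.50 ± 0.27.

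Srebf2 and Insig1 represent the regulators of the branch. Srebf2 ran from 8.83 to 9.23, with a median of 9.02, in the 7 placebo animals with tumors, and was 8.89, 8.98 and 9.03 in the 3 placebo animals without. Among tamoxifen animals it was 8.95, 9.0 and 9.10 in the 3 with tumors and ran from 8.95 to 9.28, with a median of 9.02, in the 7 without. Srebf2 spanned a 1.36-fold range over all animals, and its difference by treatment was 0.04 (SE 0.049, adjusted p = 0.721) by limma. Insig1 encodes the protein that retains the SREBP complex in the endoplasmic reticulum when sterols are abundant. Insig1 ran from 10.85 to 11.53, with a median of 11.08, in the 7 placebo animals with tumors, and was 10.98, 11.01 and 11.30 in the 3 placebo animals without. With tamoxifen it was 10.92, 11.49 and 11.52 in the 3 with tumors and ran from 10.66 to 11.41, with a median of 11.17, in the 7 without. Its groups overlapped, with differences of 0.18 (SE 0.11, adjusted p = 0.436) by outcome and -0.16 (SE 0.14, adjusted p = 0.544) between tamoxifen animals without and placebo animals with tumors. They were 0.28 (SE 0.12) and -0.32 (SE 0.16) without placebo animals 7, 8 and 9.

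Other genes of the pathways, listed by name, gave no call in any of the 9 comparisons (limma). Of 30 other fatty acid genes listed, 24 were tested, and at an unadjusted p under 0.05 between tamoxifen animals without and placebo animals with tumors, which 20.4% of all genes passed, 3 were lower and 0 higher. The smallest p there belonged to Elovl7, an elongase of saturated chains, with -0.39 (SE 0.12, adjusted p = 0.0711). Of 17 other cholesterol genes listed, 13 were tested, and at that threshold 3 were lower and 1 higher. By outcome, 5 other fatty acid genes and 1 other cholesterol gene were higher at the unadjusted threshold and none lower, against 16.5% of all genes.

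Most of the variation in both branches lay between animals of the same group. The median SD within groups was 0.28 in the fatty acid branch and 0.30 in the cholesterol branch, against 0.14 over all genes tested. The 4 groups held a median of 9.66% of the variance of the fatty acid genes and 10.9% of that of the cholesterol genes, against 17.0% over all genes. Fads2, at 59.5%, and Fads1, at 44.8%, had the highest shares. Over all animals Elovl6 ranged 5.08-fold, Fads2 3.42-fold, Me1 3.36-fold, Acly 3.02-fold and Hmgcs1 2.94-fold, while Scd1 ranged 1.14-fold.

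**Figure D3:**
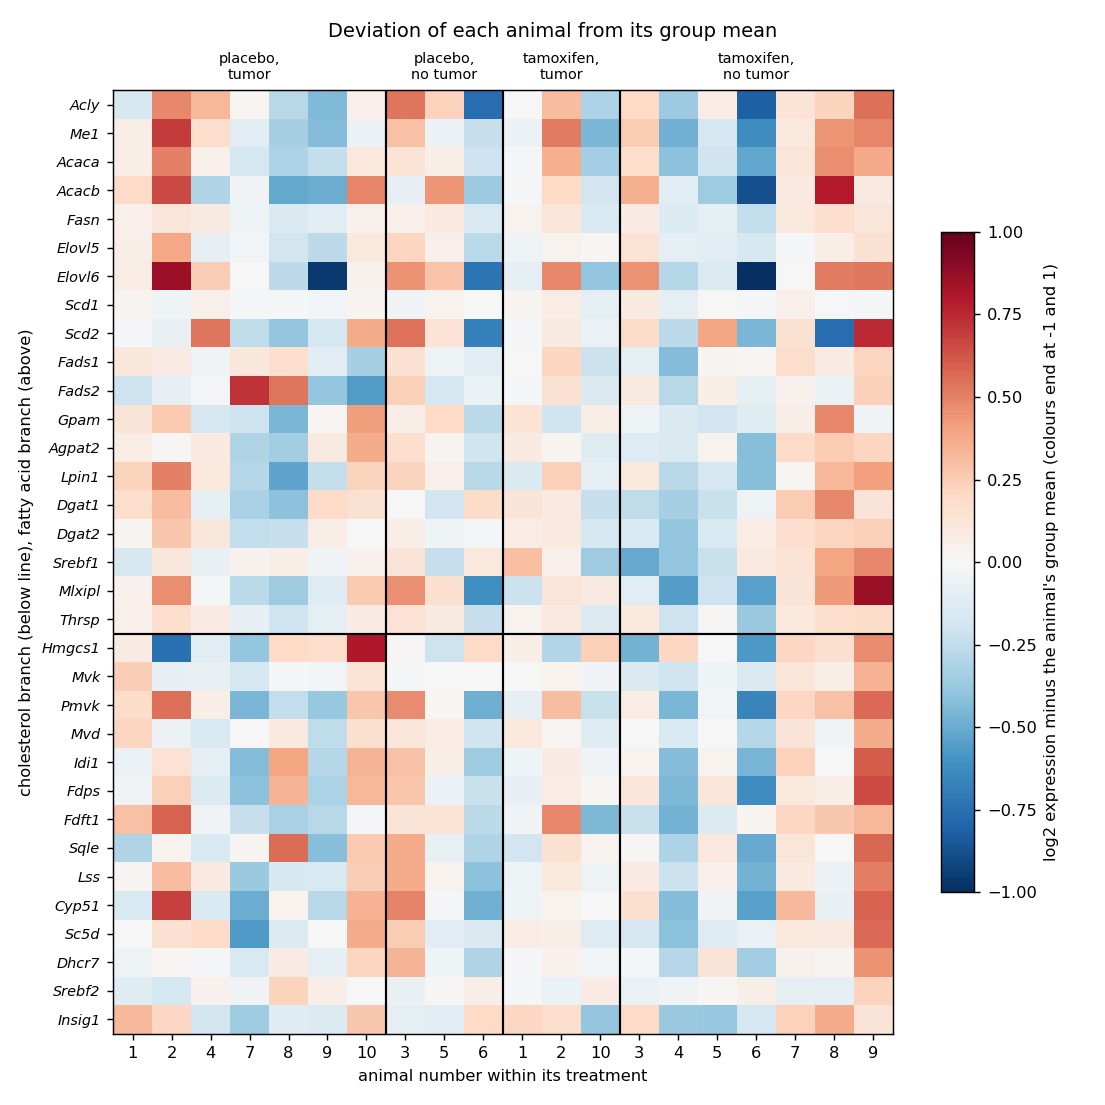
Log2 expression minus the mean of the animal's group (colour) for the 33 measured genes (rows, fatty acid branch above the line) in the 20 animals (columns, by group). Tamoxifen animal 6 is low and tamoxifen animal 9 high in most genes of both branches, and placebo animals 7 and 8 stand out in Fads2, at 0.72 and 0.54.

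The mean level of each branch per animal showed which animals were high or low. Tamoxifen animal 6 had the lowest mean level of both branches, -0.43 for fatty acid genes and -0.36 for cholesterol genes, each relative to the mean over all animals. Tamoxifen animal 4, at -0.37 and -0.30, and placebo animal 6, at -0.28 and -0.24, were low in both. Tamoxifen animal 9, at 0.23 and 0.44, placebo animal 2, at 0.38 and 0.17, and placebo animal 10, at 0.18 and 0.31, were high in both. Placebo animal 7, at -0.25, was low for cholesterol genes and lay at 0.0020 for fatty acid genes.

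How genes moved together was examined by correlating their deviations from the group means over the 20 animals, after the values had been seen. The family held 703 pairs, among the 33 genes and 5 marker genes (Adipoq for white fat, Ucp1 for brown fat, Epcam for epithelium, Csn2 for milk and Acta1 for skeletal muscle), with p from 100000 permutations of the animals within groups and Benjamini-Hochberg adjustment over the 703. All values of an animal come from 1 array and 1 RNA sample. Among fatty acid genes 70 of 171 pairs passed an adjusted p of 0.05, among cholesterol genes 44 of 91, and between the branches 87 of 266, all with positive r. Median r was 0.50, 0.58 and 0.49, against -0.004 over all pairs of genes tested, of which 9.6% had r of at least 0.5, compared with 49.7%, 56.0% and 47.4% of the pairs of members.

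The 4 pairs with the highest r were the following. Idi1 and Fdps had r = 0.97 (permutation p = 1e-05, the smallest these permutations can give, adjusted p = 0.00026, rho = 0.95, n = 20), and r was 0.96 without the 2 animals farthest from the median of Idi1. Me1 and Acaca had r = 0.97 (permutation p = 1e-05, adjusted p = 0.00026, rho = 0.96, n = 20), and 0.96 without the 2 farthest. Fasn and Thrsp followed with r = 0.95 (permutation p = 1e-05, adjusted p = 0.00026, rho = 0.93), and 0.94 without the 2 farthest. Acaca and Fasn had r = 0.94 (permutation p = 1e-05, adjusted p = 0.00026, rho = 0.94), and 0.92 without the 2 farthest.

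Some genes of one branch went with the other. Pmvk, of the mevalonate pathway, passed with 12 of 19 fatty acid genes and 10 of 13 cholesterol genes, and its r with Thrsp was 0.92 (permutation p = 1e-05, adjusted p = 0.00026, rho = 0.94, and 0.90 without the 2 farthest). Fdft1 passed with 13 fatty acid genes and 5 cholesterol genes. Mlxipl passed with 12 fatty acid and 10 cholesterol genes, whereas Srebf1 passed with 2 and 1. Hmgcs1, Srebf2 and Scd1 passed with no member. Hmgcs1, whose upstream region above holds all the searched letters other than the E-box, had a median r of 0.36 with the other cholesterol genes and -0.03 with the fatty acid genes. Srebf2 had a median r of 0.10 with the other cholesterol genes and -0.38 with the fatty acid genes, none of which passed.

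**Figure D4:**
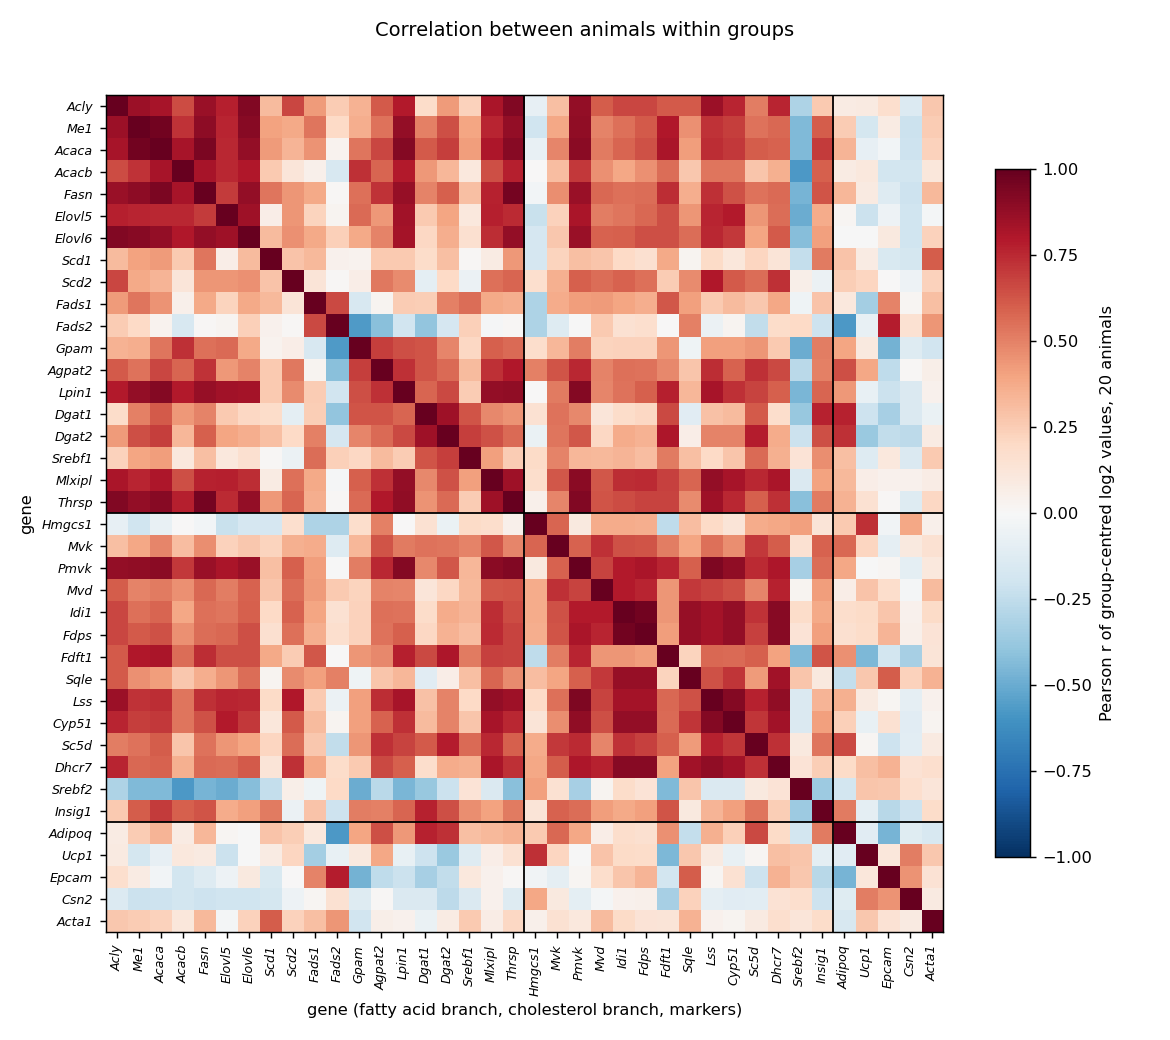
Pearson r (colour) of group-centred log2 values over 20 animals between the 33 measured genes and 5 marker genes, with black lines between the fatty acid branch, the cholesterol branch and the markers. Hmgcs1, Srebf2, Scd1 and Fads2 appear as pale or blue rows against a median r of 0.50 within the fatty acid branch and 0.58 within the cholesterol branch.

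Fads2 and Fads1 had few such partners among the members. Fads2 passed with 1 member, Fads1, with r = 0.66 (permutation p = 0.00034, adjusted p = 0.0029, rho = 0.70, n = 20, and 0.55 without the 2 farthest). Its median r with the 18 other fatty acid genes was 0.01. That of Fads1 was 0.37, near those of Scd2 at 0.36 and Scd1 at 0.27, and Fads1 passed with 1 gene of each branch. Fads2 instead passed with Epcam, with r = 0.79 (permutation p = 0.00095, adjusted p = 0.0061, rho = 0.81, n = 20). That r was 0.64 without the 2 animals farthest from the median of Fads2 and 0.73 without placebo animals 7, 8 and 9. How many of all genes tested pass with Epcam was not computed.

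The 5 marker genes passed with members in 8 of 165 pairs. Over all pairs of genes tested 9.6% had r of at least 0.5, and the share of all genes that pass with these markers was not computed. Dgat1 went with Adipoq at r = 0.77 (permutation p = 0.00036, adjusted p = 0.00305, rho = 0.80, and r = 0.80 without the 2 farthest), and Dgat2 at r = 0.73 (permutation p = 0.00078, adjusted p = 0.00554, rho = 0.64, and r = 0.64 without the 2 farthest). Agpat2 and Sc5d also passed with Adipoq, at 0.64 (permutation p = 0.0092, adjusted p = 0.0361, rho = 0.63, and r = 0.66 without the 2 farthest) and 0.66 (permutation p = 0.00473, adjusted p = 0.0229, rho = 0.59, and r = 0.55 without the 2 farthest). Adipoq lay near the top of the scale. Its lowest deviations from the group mean were those of placebo animals 7 and 8, at -0.24 and -0.17, where Dgat1 had -0.33 and -0.41. Sqle passed with Epcam at 0.61 (permutation p = 0.0123, adjusted p = 0.0437, rho = 0.61, and r = 0.50 without the 2 farthest). Hmgcs1 passed with Ucp1 at 0.73 (permutation p = 0.00265, adjusted p = 0.0147, rho = 0.51, and r = 0.49 without the 2 farthest), and placebo animal 2 and tamoxifen animal 6 were the lowest in Ucp1, at 10.43 and 11.57. The remaining pair was Scd1 with Acta1 at r = 0.60 (permutation p = 0.00797, adjusted p = 0.0331, rho = 0.63, and r = 0.58 without the 2 farthest). None of the 33 members passed with Csn2, the beta-casein gene.

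**Figure D5:**
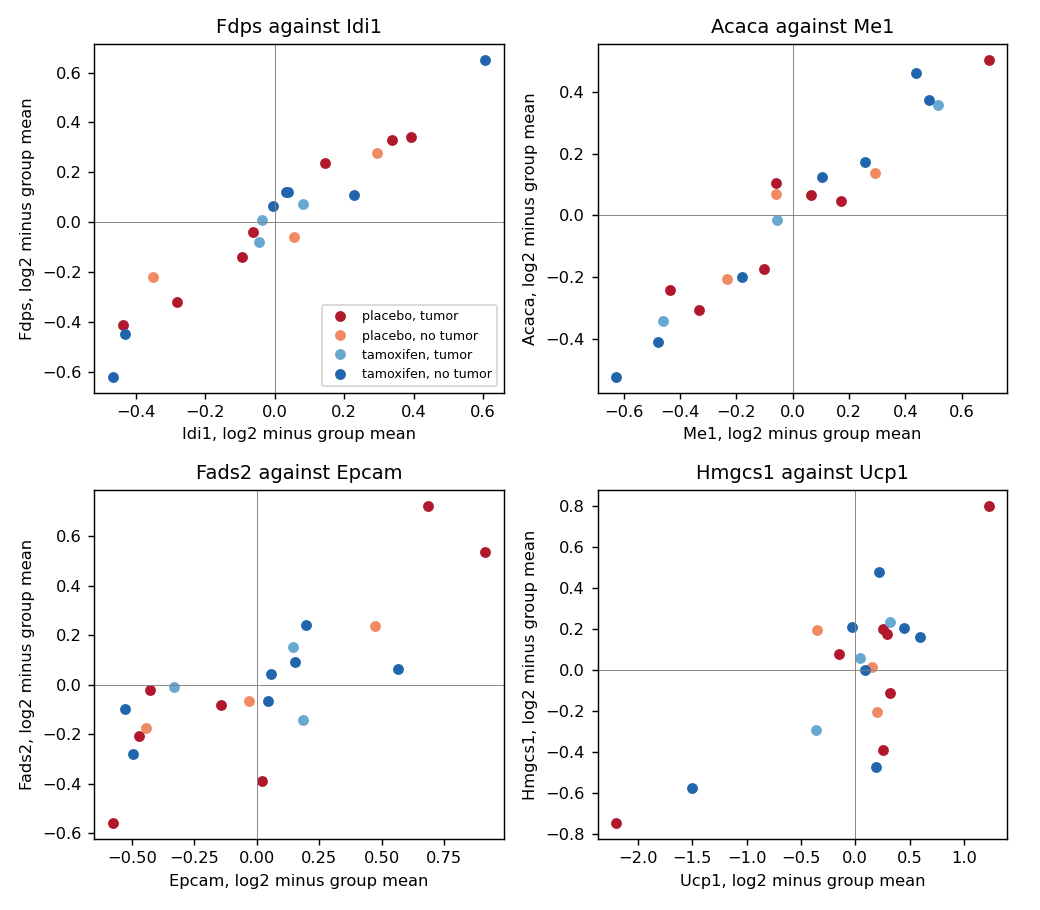
Log2 expression minus the group mean of Fdps against Idi1, Acaca against Me1, Fads2 against Epcam and Hmgcs1 against Ucp1, with 1 point per animal coloured by group. The points of the upper panels follow a line (r = 0.97 in each), and those of the lower panels scatter more widely (r = 0.79 and 0.73).

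The number of correlated pairs depended on single animals. Without tamoxifen animal 4 the pairs between the branches fell to 54, and without tamoxifen animal 9 the pairs among cholesterol genes fell to 28. Leaving out each animal in turn gave 56 to 72 pairs among fatty acid genes. The 8 pairs with marker genes became 4 without placebo animal 2 or without tamoxifen animal 4, and 5 without tamoxifen animal 7, without tamoxifen animal 10 or without placebo animals 7, 8 and 9 together.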

How the data were processed

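Expression was measured in 20 mammary glands, 1 Affymetrix array per animal, from biotin-labelled cRNA per the labels' protocols. The authors deposited RMA values of each probe set in log2 units, per the submitters' processing notes (program, release and genome build not given in the sources used here). Groups were taken from the labels. The deposited log2 values were not transformed further.

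Of 45101 probe sets, 34958 had 1 gene symbol in the platform table (34754 matched to a RefSeq gene by Entrez ID), 932 had several and 9211 had none, and only the first kind was used. The probe set highest on average stood for each of 18194 genes, and 12499 of them were tested, those exceeding 6.85, the overall median, on 3 arrays or more. Of the 33 measured members 25 had several probe sets. All arrays differed from each other, with Pearson r between them of 0.977 to 0.997.

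The lmFit and eBayes functions of limma 3.58.1 (R 4.3.3) gave the two-sided tests, with Benjamini-Hochberg adjustment over all genes tested and a threshold of 0.05. Outcome and treatment were fitted with 2 groups each, and the other comparisons with a model of the 4 groups. The 95% intervals use the moderated degrees of freedom. The procedure was tested on simulated data. Correlations, figures and motif searches were made in Python 3.11.15 with numpy 2.4.6, pandas 2.3.3 and matplotlib 3.10.9.

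The members and the other gene lists were chosen with earlier results of these data known. Members called in any comparison and the 4 smallest p per branch for outcome, for treatment and for the 7-against-7 comparison are given in full, the rest by group values. Of the other pathway genes the 1 with the smallest p is named. Alternatives covered array scaling, dim-probe filters, which probe set stood for a gene, weights per array, how variances were modelled, replicate numbers as a block, the other factor, marker list means as covariates, leaving out placebo animals 7, 8 and 9, and leaving out each animal. The pair counts and their alternatives were chosen after seeing the data.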

Additional observations from a re-analysis of the deposited data

Results flagged for a closer look

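In tamoxifen animals without tumors, Gpam, the acyltransferase that starts glycerolipid synthesis, was 12.342 in tamoxifen animal 8. The next value was 11.93 and the lowest 11.675, so that this animal stood apart from the other 6 by more than the 95% critical gap for a group of 7. Of 66 combinations of a gene and a group of 7 that were examined, 1 was marked in this way, where chance marks about 1 in 20.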

How the results depend on the processing

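In 8 of 15 other settings fewer fatty acid genes were called between tamoxifen animals without and placebo animals with tumors (2 as reported). It was 1 (Fads2) with array medians subtracted, without the filter, with array weights, with the brown adipocyte mean as a covariate and without placebo animals 7, 8 and 9, and 0 with the pan-epithelial, milk and alveolar or white adipocyte mean as a covariate. Calls over all genes were 6, 0 and 266 with those 3 means, 141 without the 3 animals and 461 to 571 in the other settings named, against 579. The cause was not tested. Leaving out each animal gave 1 to 2, and by outcome 0 to 1, with Fads2 called without tamoxifen animal 1 or 10. With the pan-epithelial covariate the Sqle difference turned to -0.0475 by outcome and to 0.12 between the 7 and 7 animals. Rescaling moved the median of all genes by under 0.1.

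It was not settled whether replicate numbers from the labels pair the animals, because no different-numbered pairs were set beside the same-numbered ones. Deviations of same-numbered animals correlated over 0.1 in 4 of 10 pairs by treatment number (median 0.074, highest 0.59). By outcome number 1 of 10 did (median -0.042, highest 0.32). With these numbers as a replicate block, 1 fatty acid gene (Lpin1) was called among placebo animals, where calls over all genes went from 1 to 602, and 1 cholesterol gene between the 7 and 7 animals, Hmgcs1 at 0.63 (SE 0.18, adjusted p = 0.0411, limma), where they went from 579 to 1647. That difference then rests on the 4 numbers with an animal in both groups (4, 7, 8 and 9), not on 7 and 7 animals. The differences of Cyp51, Fasn and Insig1 there turned to 0.0467, 0.0037 and 0.13. The block changed no other count of members called. Each placebo animal has its own number, so with the block the comparison among placebo animals is made only through tamoxifen animals of the same numbers.

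Leaving out each animal gave 56 to 72 correlated pairs among fatty acid genes, 28 to 46 among cholesterol genes, 54 to 112 between the branches and 4 to 8 with markers. Without placebo animals 7, 8 and 9 they were 55, 35, 80 and 5, and with Spearman's rho 63, 34, 73 and 7. Groups of 3 limit the comparisons within a treatment or an outcome, and Scd1, Thrsp and Fasn, like the marker Adipoq, lay near the top of the scale.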
